A study of Homo sapiens with 18 samples.

Results

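The HOX genes encode homeodomain transcription factors that give cells their position along the body axis and the limbs. They were chosen here by symbol, as every row of the count tables named HOXA, HOXB, HOXC or HOXD followed by a number. This gave 39 members among 58381 rows, the same 39 in each table, and all 39 matched an Ensembl identifier of GENCODE release 44.

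Ewing sarcoma is a tumour of bone and soft tissue driven by a fusion of EWSR1 to an ETS family gene, most often FLI1. The 18 libraries were from 3 established lines of this tumour, TC-32, TC-71 and A673, each a line from a single tumour. Per line, 3 libraries were made after siFLI1, a small interfering RNA that targets FLI1 and with it the fusion transcript. The other 3 were made after siNeg, a negative control RNA. Both RNAs were used at 20 nM and were given while the cells were being seeded. The TC-32 and TC-71 cells were grown in RPMI and the A673 cells in DMEM, and the columns of the first 2 tables carry a time of 48 h. The 6 groups therefore differ in line and siRNA, and no untransfected cells were analysed here. A single siRNA per target was used, so an effect of its sequence on other transcripts was not tested.

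Total counts per library lay between 24102487 and 33669271 for TC-32, between 19685354 and 37234528 for TC-71 and between 114564479 and 120993595 for A673. FLI1, the target, fell in every line (adjusted p between 8.88e-18 and 1.85e-13). Its libraries went from between 42.8 and 47.7 CPM (counts scaled to library depth) to between 21.7 and 22.6 in TC-32, from between 48 and 52.8 to between 17.2 and 19.9 in TC-71, and in A673 from between 75.4 and 76.8 to between 17.6 and 18.3. CD99, NKX2-2, NR0B1, STEAP1, PAX7 and LIPI, which mark Ewing sarcoma cells, were counted in each line, except that CD99 is listed at 0 in all TC-71 libraries. CD99 lies in a region shared by chromosomes X and Y and has a row for each copy. The TC-32 and A673 tables divide its expected counts evenly between the rows and the TC-71 table has 0 in both, so that 0 may come from the counting and was not tested. All 6 fell in TC-32 and in A673, and the 5 that could be tested fell in TC-71. Their summed level per library ranged from 515 to 1050 CPM over the siNeg libraries. The T cell marker CD3E was at 0 in every TC-32 and A673 library and had at most 1 count in TC-71, and the muscle regulators MYOD1 and MYOG had at most 4 counts in any library. DES, the other muscle marker, rose from a mean of 0.312 to 5.94 CPM in TC-32 and from 0.0139 to 0.418 CPM in A673, and held at most 3 counts in TC-71. The mesenchymal markers THY1, ENG, NT5E and CD44 moved with the siRNA: all 4 rose in TC-32, and in TC-71 and A673 the other 3 rose while THY1 fell. Their summed level went from between 141 and 149 CPM to between 437 and 456 in TC-32, from between 42.8 and 45.6 to between 141 and 149 in TC-71, and from between 146 and 152 to between 1150 and 1250 in A673. The neural markers ENO2 and SYP, the keratins KRT8 and KRT18 and CD79A moved as well: ENO2, SYP and CD79A fell in every line, and both keratins and the neural marker NEFL rose in every line. DES in TC-32 and A673 and CD79A in TC-32 passed the low-count filter used below only through the siRNA group in which they were higher. The part of these changes in the HOX results was not tested, and in these bulk libraries fewer cells of a kind and less RNA per cell cannot be told apart.

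HOX genes lie in 4 clusters on 4 chromosomes: HOXA on chromosome 7, HOXB on 17, HOXC on 12 and HOXD on 2. Within a cluster the genes run in the order of their numbers, and in the embryo low-numbered (anterior) genes are used nearer the head and high-numbered (posterior) genes nearer the tail and in the ends of the limbs. Groups 1 to 3 are called anterior here, 4 to 8 central and 9 to 13 posterior. HOX proteins bind DNA together with TALE homeodomain partners of the PBX, MEIS and PKNOX families, and HOX loci are kept active by MLL complexes that contain menin.

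Because the fusion protein binds GGAA motifs, the 250 bases before the RefSeq start sites (GRCh38.p14) of 4 HOXD genes are printed to set genes with different responses side by side. All 4 lie on the plus strand of chromosome 2. Capitals mark GGAA, or TTCC where the motif lies on the other strand.
HOXD13, chr2:176092471-176092720: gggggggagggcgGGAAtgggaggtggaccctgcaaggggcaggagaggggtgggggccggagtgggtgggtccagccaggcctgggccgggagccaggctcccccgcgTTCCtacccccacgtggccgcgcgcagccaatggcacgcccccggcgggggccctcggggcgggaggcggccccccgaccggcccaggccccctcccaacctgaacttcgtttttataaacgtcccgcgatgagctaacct
HOXD10, chr2:176116528-176116777: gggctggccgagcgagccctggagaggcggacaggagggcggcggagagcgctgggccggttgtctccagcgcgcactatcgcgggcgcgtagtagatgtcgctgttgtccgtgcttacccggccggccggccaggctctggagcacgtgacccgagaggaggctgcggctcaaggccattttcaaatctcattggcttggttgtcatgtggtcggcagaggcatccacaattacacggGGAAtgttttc
HOXD8, chr2:176129455-176129704: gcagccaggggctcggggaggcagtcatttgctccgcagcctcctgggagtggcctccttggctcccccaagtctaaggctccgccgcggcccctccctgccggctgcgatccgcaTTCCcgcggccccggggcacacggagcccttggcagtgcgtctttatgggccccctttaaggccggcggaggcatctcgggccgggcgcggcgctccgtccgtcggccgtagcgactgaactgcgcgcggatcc
HOXD4, chr2:176151300-176151549: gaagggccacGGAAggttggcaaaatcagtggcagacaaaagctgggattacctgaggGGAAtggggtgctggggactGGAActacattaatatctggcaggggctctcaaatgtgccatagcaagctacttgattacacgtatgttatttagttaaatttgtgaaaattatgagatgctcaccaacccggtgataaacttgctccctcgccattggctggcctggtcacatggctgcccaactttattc
The HOXD13 window held 2 matches, HOXD10 and HOXD8 had 1 each and HOXD4 had 3. Such matches are common: 92.7% of the 35116 promoter windows in the RefSeq table held GGAA on either strand, with a median of 3. The direct repeat GGAAGGAA was in 3.06% of all windows, and in none of these 4. The table had windows for 20 of the 39 members, 27 windows in all, of which 23 held GGAA and 1, of HOXA2, held GGAAGGAA. GC content set the 4 windows apart, from 74.0% at HOXD13, 72.4% at HOXD8 and 64.0% at HOXD10 to 47.6% at HOXD4, against a median of 58.0% over all windows. These matches describe the sequence, and binding was not measured here.

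The first question was which HOX genes each line used under the control siRNA. Levels are TMM-scaled CPM divided by exon length in kilobases (CPM per kb), which allows genes to be compared within a line. The lines' tables were made separately, that of TC-71 with another counting tool, so levels are set side by side across lines with no test. Summed over the 39 members, the siNeg level in CPM per kb was 272 ± 1.53 for TC-32, 233 ± 2.84 for TC-71 and 156 ± 2.16 for A673 (SD, n = 3 each). HOXD made up the largest share of that sum, at 44.7% (TC-32), 51.3% (TC-71) and 67.0% (A673). HOXB followed with 42.6%, 23.1% and 21.9%, and HOXC with 12.6%, 19.4% and 11%. HOXA was the cluster that divided the lines: it held 6.25% of the sum in TC-71, 0.0712% in TC-32 and 0.0017% in A673. Posterior genes held most of the sum in every line, at 74.7%, 74.5% and 62.6%.

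**Figure D1:**
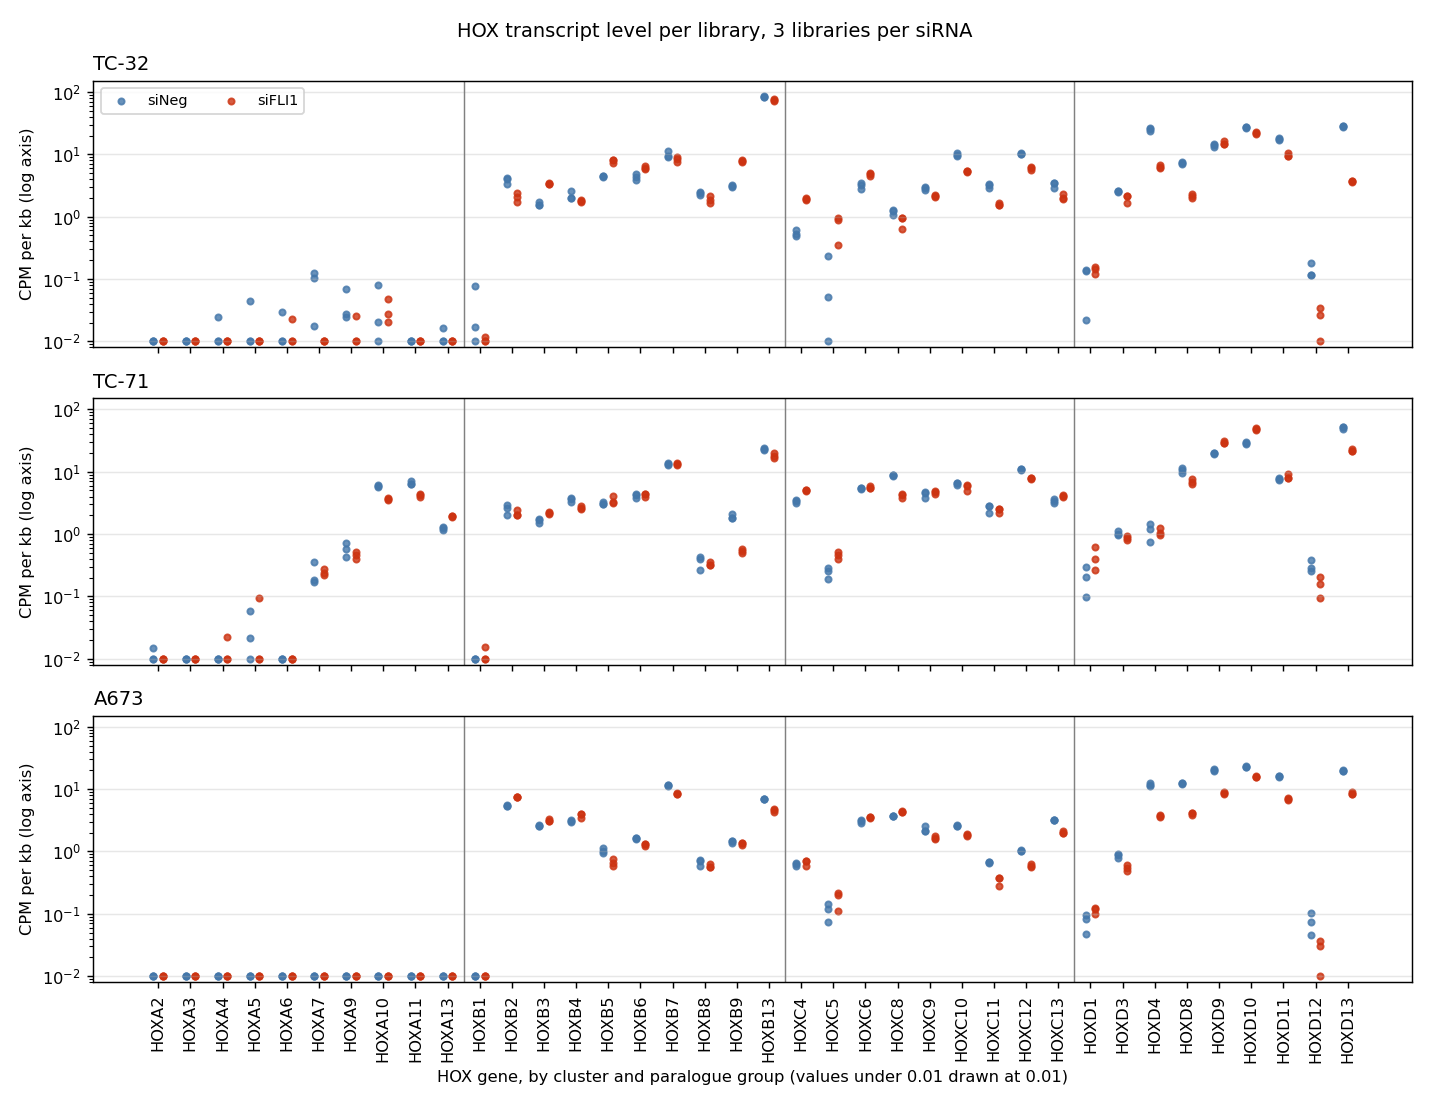
Level of HOX genes in each siNeg and siFLI1 library of the 3 lines, in CPM per kb on a log scale, by cluster and paralogue group, with values under 0.01 drawn at 0.01. The 3 highest siNeg levels in each line are HOXD genes or HOXB13, and HOXA is above the floor of the plot mainly in TC-71.

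HOXB13, the posterior end of the HOXB cluster and best known from prostate, led in TC-32 at 84.1 CPM per kb, above the level of 97.8% of the genes tested there. It was at 23.3 CPM per kb in TC-71 and at 6.91 in A673, above 69.9% of genes. HOXD13, a gene of digit and urogenital development, led in TC-71 at 50.5 CPM per kb and was at 28.0 in TC-32 and 19.8 in A673. HOXD10, a limb and lumbar patterning gene, led in A673 at 23.2 CPM per kb and was at 26.9 in TC-32 and 28.6 in TC-71, above between 90.7% and 91.7% of genes in the 3 lines. HOXD9 at 20.4, HOXD13 at 19.8 and HOXD11 at 16.3 CPM per kb came next in A673. In TC-32 the next places were HOXD13, HOXD10, HOXD4 at 25.3 and HOXD11 at 17.5, and in TC-71 HOXD10, HOXB13, HOXD9 at 19.7 and HOXB7 at 13.5. The median gene tested was at 3.29, 3.53 and 2.37 CPM per kb in TC-32, TC-71 and A673.

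HOXD4, a central gene of hindbrain and neck patterning, was used very unequally. Its 3 siNeg libraries read 27.1, 30.6 and 28.6 CPM in TC-32, 13.2, 12.7 and 14.0 in A673, and 1.37, 1.62 and 0.833 in TC-71. No HOXA gene had more than 3 counts in an A673 library, although those are the deepest, or more than 8 in a TC-32 library. In TC-71, HOXA10 read 20.9, 21.9 and 23.1 CPM and HOXA11 read 18.9, 16.9 and 16.9, so these posterior HOXA genes were clearly expressed in that line. HOXA13 and HOXA9 were lower there, at 1.24 and 0.571 CPM per kb, under the median gene tested at 3.53. A count of 0 allows up to 3 counts, which is at most 0.0262 CPM in an A673 library and at most 0.152 CPM in a TC-71 library. These limits cover counting error only.

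The second question was how siFLI1 changed the HOX genes within each line. Members past a low-count filter were tested by edgeR's quasi-likelihood F-test and called at an adjusted p under 0.05. In TC-32, 25 of the 39 were tested, and 7 rose, 16 fell and 2 did not pass, where 41.3% of all genes tested rose and 40.1% fell. In TC-71, 32 were tested, and 8 rose, 11 fell and 13 did not pass, where 36.8% of all genes rose and 35.0% fell. In A673, 27 were tested, and 5 rose, 17 fell and 5 did not pass, where 35.6% of all genes rose and 35.4% fell. Counting calls of at least 2-fold, 4 members were higher and 3 lower in TC-32, beside 22.0% and 15.6% of all genes. In TC-71, 1 was higher and 4 were lower by that measure, beside 14.1% and 9.38%, and in A673 none was higher and 6 were lower, beside 13.3% and 9.87%. Members whose siRNA groups did not overlap numbered 23, 19 and 23 in the 3 lines, beside 82.6%, 73.8% and 73.6% of all genes. The median log2 fold change of the members tested was -0.32, -0.07 and -0.50 in the same order, where the medians of all genes were 0.02, 0.02 and -0.01. Most genes tested in each line were called, so a call by itself says little, and the sizes that follow matter more. HOXC5 in TC-32 and in TC-71, HOXD1 and HOXD12 in TC-71 and HOXD12 in A673 passed the filter only through the group in which they were higher, so a difference was built into their test.

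The summed HOX level under siFLI1, in CPM per kb, was 201 ± 5.86 for TC-32, 215 ± 3.54 for TC-71 and 94.9 ± 1.28 for A673, and the siNeg and siFLI1 libraries did not overlap in any line. HOXD made up most of the difference in TC-32 and A673. Its sum went from 122 ± 1.42 to 61.4 ± 1.37 CPM per kb in TC-32 and from 105 ± 1.78 to 48.4 ± 0.508 in A673, but only from 120 ± 1.96 to 118 ± 1.86 in TC-71, where the libraries overlapped. The HOXB sum was 116 and 114 CPM per kb in TC-32, with overlapping libraries, 53.9 and 47.0 in TC-71, and 34.3 and 31.4 in A673. The HOXC sum went from 34.5 to 25.4, from 45.2 to 39.8 and from 17.3 to 15.1, and the HOXA sum in TC-71 from 14.6 to 10.5. These sums were not tested.

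**Figure D2:**
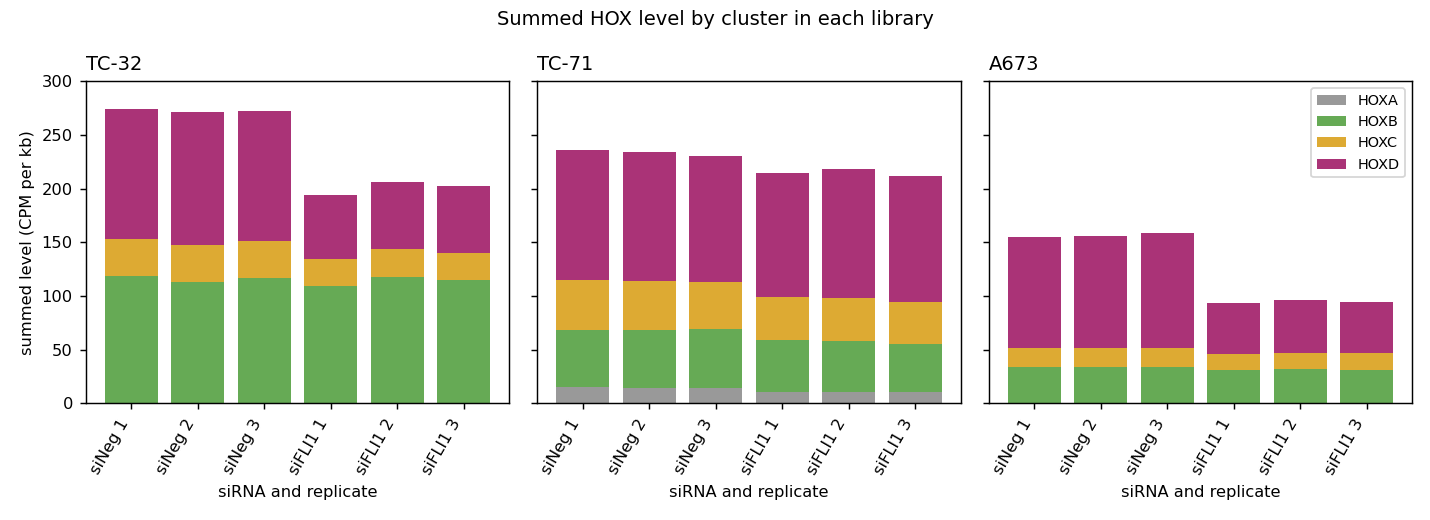
Summed level of each HOX cluster per library, in CPM per kb, for siNeg and siFLI1 in the 3 lines. The HOXD sum separates the siRNAs in TC-32 and A673, and the TC-71 HOXD libraries lie together near 120.

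HOXD had the lowest median change of the clusters tested in TC-32 and A673, and not in TC-71. In TC-32, 6 of the 7 members tested fell and none rose, and in A673, 8 of 9 fell and none rose, whereas in TC-71, 3 fell, 3 rose and 3 did not pass. The median log2 fold changes were -0.84, -1.22 and -0.03.

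HOXD13 (chromosome 2, 176092721 to 176095944, GRCh38) shares no exon bases with another gene. Its siNeg libraries in TC-32 read 69.9, 67.8 and 65.5 CPM and its siFLI1 libraries 9.12, 8.70 and 9.03, a log2 fold change of -2.92 (SE 0.0671, adjusted p = 3.81e-22). In TC-71 it went from 125, 125 and 116 CPM to 56.4, 51.2 and 52.1, a change of -1.20 (SE 0.0522, adjusted p = 1.69e-18). In A673 it went from 47.2, 48.9 and 47.6 CPM to 21.5, 20.0 and 20.3, a change of -1.22 (SE 0.0451, adjusted p = 5.15e-13). Every siFLI1 library lay below every siNeg library in the 3 lines. TC-32 fell further than A673, by 1.68 in log2 units (interaction adjusted p = 2.92e-19) and further than TC-71, by 1.73 (adjusted p = 4.11e-19), while A673 and TC-71 differed by -0.05 (SE 0.0683, adjusted p = 0.585).

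HOXD8, a central gene of trunk patterning, fell in all 3 lines as well. It went from 20.1, 18.8 and 18.1 CPM to 5.25, 5.58 and 5.96 in TC-32, a log2 fold change of -1.76 (SE 0.0924, adjusted p = 6.79e-15). In A673 it went from 31.5, 32.9 and 32.8 CPM to 11, 10.1 and 10.9, a change of -1.60 (SE 0.0509, adjusted p = 6.99e-14). The fall in TC-71 was smaller, from 30.3, 25.4 and 27.9 CPM to 19.9, 18.2 and 16.4, a change of -0.63 (SE 0.0802, adjusted p = 4.98e-08). No siFLI1 library reached the lowest siNeg library. TC-71 differed from TC-32 by 1.14 (adjusted p = 3.55e-10) and from A673 by 1.00 (adjusted p = 1.02e-10). On the opposite strand, the noncoding HOXD-AS2 covers 24.4% of HOXD8's exon bases, and the sources do not say whether counting used strand.

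HOXD4 fell where it was well expressed. Its siFLI1 libraries read 7.55, 7.16 and 6.94 CPM in TC-32 and 4.20, 4.4 and 4.07 in A673, log2 fold changes of -2.00 (SE 0.0823, adjusted p = 5.08e-17) and -1.66 (SE 0.0660, adjusted p = 1.29e-12). In TC-71, where its siNeg level was below 2 CPM, it read 1.19, 1.42 and 1.08, a change of -0.03 (adjusted p = 0.912), and the libraries overlapped. TC-71 differed from TC-32 by 1.98 (adjusted p = 5.16e-09) and from A673 by 1.66 (adjusted p = 1.31e-07). TC-32 and A673 differed by -0.32 (adjusted p = 0.022), a call lost with library size alone, at -0.20 (adjusted p = 0.162), without TC-32 siNeg replicate 2, siFLI1 replicate 2 or siFLI1 replicate 3, and without A673 siNeg replicate 2 or siFLI1 replicate 2 (adjusted p between 0.051 and 0.0744).

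In TC-71, HOXD9, HOXD10 and HOXD11 did not fall with HOXD13. HOXD10 went from 69.3, 71.2 and 73.3 CPM to 115, 122 and 124 there, a log2 fold change of 0.75 (adjusted p = 2.51e-14). It went from 67.3, 65.1 and 68.3 to 53.2, 56.9 and 55.5 CPM in TC-32 and from 57.2, 56.6 and 59.1 to 38.4, 40.3 and 39.1 in A673, changes of -0.28 (adjusted p = 4.33e-05) and -0.55 (adjusted p = 4.42e-09). So HOXD10 rose in TC-71 and fell in the other 2 lines, with no overlap in any of them. HOXD9 also rose in TC-71, from 37.7, 37.0 and 36.0 CPM to 54.2, 58.3 and 54.2, a change of 0.59 (adjusted p = 1.93e-10). In A673 it fell from 38.6, 36.8 and 39.4 CPM to 15.6, 16.8 and 16.1, a change of -1.24 (adjusted p = 8.87e-13). TC-32 sat between these, at 24.9, 26.7 and 27.2 CPM against 27.0, 27.6 and 30.0, a change of 0.10 that did not pass (adjusted p = 0.167).

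HOXD11, a gene of forearm and kidney development, went from 36.6, 38.3 and 36.3 CPM to 19.8, 22.3 and 20.1 in TC-32, a log2 fold change of -0.84 (adjusted p = 3.16e-11). In A673 it went from 33.5, 34.8 and 34.9 CPM to 15.0, 14.9 and 14.4, a change of -1.22 (adjusted p = 6.22e-13). TC-71 read 15.5, 16.1 and 16.6 CPM against 16.6, 19.3 and 17.1, a change of 0.13 that did not pass (adjusted p = 0.14). HOXD10 and HOXD11 share 18.2% and 21.4% of their exon bases on the same strand, so some reads could be assigned to either. HOXD9, HOXD12 and HOXD4 share none.

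The remaining HOXD genes were low. HOXD12 had 20, 13 and 28 counts in the siNeg libraries of TC-71 and 10, 14 and 9 in the siFLI1 libraries, and 14, 23 and 31 against 1, 11 and 9 in A673. Both were called lower, at log2 fold changes of -1.07 (adjusted p = 0.0103) and -1.62 (adjusted p = 0.01), and in CPM the siNeg and siFLI1 libraries did not overlap. Without siFLI1 replicate 3 the TC-71 value was -0.75 (adjusted p = 0.0997) and without siNeg replicate 3 it was -0.89 (adjusted p = 0.066). Without siNeg replicate 3 the A673 value was -1.32 (adjusted p = 0.0682). HOXD1 was called higher in TC-71 from 5, 11 and 11 counts against 29, 13 and 28, a change of 1.15 (adjusted p = 0.0126). That call was lost without siNeg replicate 1, at 0.80 (adjusted p = 0.102), and without siFLI1 replicate 1, at 0.82 (adjusted p = 0.0996), and 60.1% of HOXD1's exon bases lie opposite other genes. HOXD3 fell by 0.38 in TC-32 and by 0.65 in A673 on the log2 scale, and did not pass in TC-71 at -0.24 (adjusted p = 0.131).

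**Figure D3:**
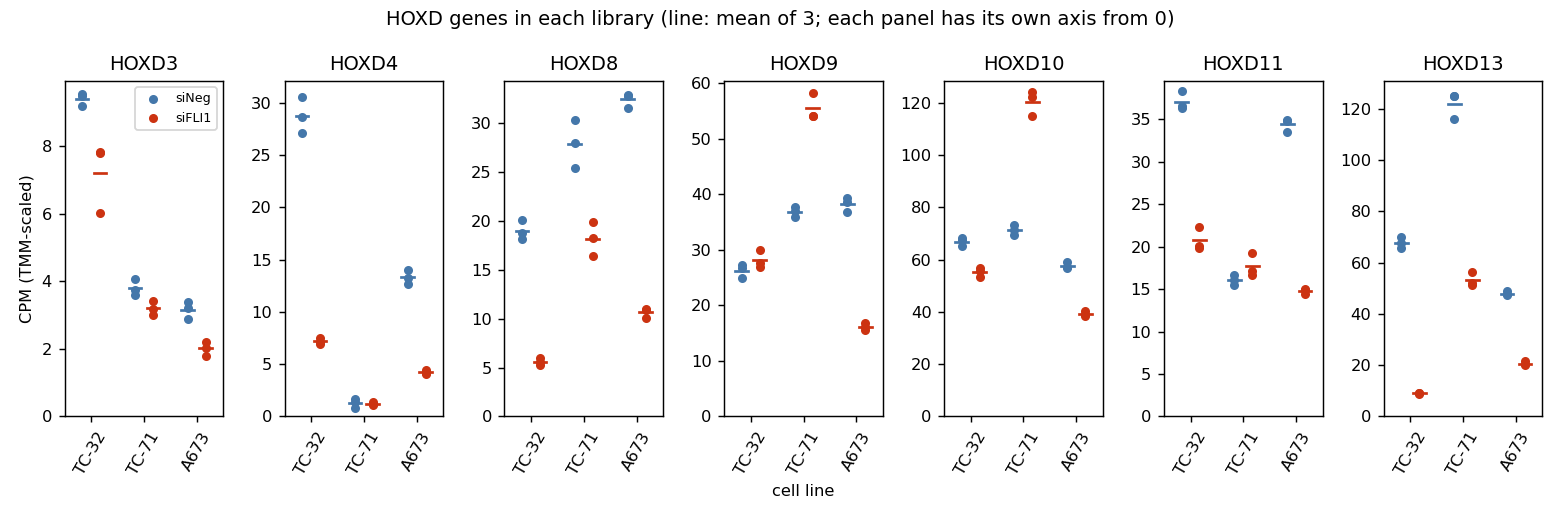
CPM of 7 HOXD genes in each library, with a line at the mean of 3 and a separate axis per gene, for siNeg and siFLI1 in the 3 lines. HOXD13 and HOXD8 are lower in every siFLI1 library, while HOXD9 and HOXD10 are higher in the siFLI1 libraries of TC-71.

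The genes flanking HOXD were read from a list of 7. EVX2, a homeobox gene that neighbours HOXD13, fell from 2.58 to 0.502 CPM (TC-32), from 11.1 to 3.15 (TC-71) and from 1.33 to 0.284 (A673). Its log2 fold changes were -2.37 (adjusted p = 2.08e-07), -1.85 (adjusted p = 1.57e-13) and -2.22 (adjusted p = 8.47e-08). In TC-32 its siFLI1 libraries held 9 to 23 counts, and EVX2 passed the filter there only through the siNeg group. HNRNPA3, an RNA-binding protein gene, fell by 1.56, 0.36 and 0.58. MTX2, a mitochondrial import gene at the far side of the cluster, fell by 0.50 in TC-32 and did not pass in TC-71 (-0.02, adjusted p = 0.773) or in A673 (-0.05, adjusted p = 0.384). Of the list, 5 fell and none rose in TC-32, 4 fell and 2 rose in TC-71, and 3 fell and 1 rose in A673, beside the same shares of all genes given above. EVX2 and HOXD13, which adjoin each other, thus both fell more than 2-fold in all 3 lines.

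HOXC split by position in A673 and, except for the central gene HOXC8, in TC-32, but not in TC-71. In TC-32 its 5 posterior genes, HOXC9 to HOXC13, all fell, and in A673 all 5 fell too, whereas in TC-71, 2 fell, 1 rose and 2 did not pass. In the same order of lines, 40.1%, 35.4% and 35.0% of all genes fell. HOXC12 went from 32.6, 34.7 and 33.3 CPM to 19.8, 20.4 and 18.1 in TC-32, from 35.5, 35.7 and 34.7 to 25.9, 25.2 and 25.5 in TC-71, and from 3.34, 3.27 and 3.44 to 1.83, 1.88 and 2.02 in A673. No siFLI1 library reached its line's lowest siNeg library, and the log2 fold changes were -0.79 (adjusted p = 1.37e-10), -0.47 (adjusted p = 1.18e-07) and -0.81 (adjusted p = 7.42e-07). HOXC10, a lumbar patterning gene, went from 24.8, 22.1 and 23.3 CPM to 12.9, 12.3 and 12.7 in TC-32 and from 6.09, 6.33 and 6.10 to 4.21, 4.36 and 4.52 in A673, changes of -0.89 (adjusted p = 1.3e-10) and -0.50 (adjusted p = 8.97e-06). TC-71 read 14.8, 15.5 and 15.5 CPM against 14.3, 14.0 and 11.5, a change of -0.21 (adjusted p = 0.0372). That call was lost without siFLI1 replicate 3, at -0.10 (adjusted p = 0.324), and also without siNeg replicate 2 (adjusted p = 0.0585), without siNeg replicate 3 (adjusted p = 0.0685) and with the replicate number as a block (adjusted p = 0.0507). DESeq2 lost it as well (adjusted p = 0.0665).

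HOXC11 fell by 1.00 in TC-32 and by 0.95 in A673 on the log2 scale, and HOXC9 fell by 0.41 and by 0.44. In TC-71 neither passed, at -0.10 and 0.12. HOXC13, known for hair and nail development, changed direction between lines. It went from 8.25, 8.33 and 6.86 CPM to 5.52, 4.52 and 4.70 in TC-32 and from 7.54, 7.55 and 7.58 to 4.58, 4.96 and 4.73 in A673, changes of -0.68 (adjusted p = 1.92e-05) and -0.67 (adjusted p = 1.87e-07). In TC-71 it went from 8.54, 7.96 and 7.36 CPM to 9.45, 9.87 and 9.13, a change of 0.25 (adjusted p = 0.0271). It was 0.18 (adjusted p = 0.146) without siNeg replicate 3, and the call was also lost without siNeg replicate 2 (adjusted p = 0.0593) and without siFLI1 replicate 2 (adjusted p = 0.0873). DESeq2 (adjusted p = 0.0738) and the fit without the low-count filter (adjusted p = 0.0523) lost it too.

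Among the central HOXC genes the calls in TC-32 were mostly upward. HOXC4 rose there from 1.34, 1.43 and 1.68 CPM to 5.40, 5.05 and 5.58, a log2 fold change of 1.84 (adjusted p = 2.4e-10). It rose in TC-71 from 9.77, 8.62 and 9.37 CPM to 14.0, 13.6 and 14.0, a change of 0.58 (adjusted p = 1.6e-06), and did not pass in A673 at 0.08 (adjusted p = 0.52). HOXC6 rose by 0.60 in TC-32 and by 0.20 in A673. HOXC5 had 9, 0 and 2 counts in the siNeg libraries of TC-32 and 15, 48 and 46 in the siFLI1 libraries, a fitted change of 2.98 (SE 0.668, adjusted p = 0.00116). Leaving out 1 library moved it between 2.35 and 4.76, the higher value without siNeg replicate 1. It shares 67.3% of its exon bases with other genes on the same strand, and HOXC4 shares 17.5% and HOXC6 16.1%, so some of their reads could be assigned to more than 1 gene. HOXC5 was also called higher in TC-71, at 0.88 (adjusted p = 0.0272), a call lost without either of siNeg replicates 1 and 2 or siFLI1 replicates 1 and 2 (adjusted p between 0.0523 and 0.0915). That call was also lost under DESeq2 (adjusted p = 0.0842) and without the low-count filter (adjusted p = 0.0573). Of the 5 genes flanking HOXC, 4 fell and 1 rose in TC-32, 3 fell and 1 rose in TC-71, and 4 fell in A673. Of all genes tested, 40.1%, 35.0% and 35.4% fell in these lines, and 41.3%, 36.8% and 35.6% rose.

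HOXC8, a gene of thoracic patterning, fell in TC-71 from 21.1, 21.5 and 20.5 CPM to 9.29, 10.2 and 10.7, a log2 fold change of -1.06 (adjusted p = 2e-12). It rose slightly in A673, from 8.96, 8.98 and 8.93 CPM to 10.8, 10.2 and 10.4, a change of 0.22 (adjusted p = 0.00232). That rise was 0.12 (adjusted p = 0.0674) when counts were scaled by library size alone, a scaling that moved the median of all A673 genes from -0.01 to -0.11, and HOXC6 in A673 also lost its call under it, at 0.09 (adjusted p = 0.167). Set against that median, both stayed above the typical gene. In TC-32 HOXC8 was low, at 2.55, 3.13 and 2.99 CPM against 2.34, 1.54 and 2.30. Its change of -0.50 (adjusted p = 0.0252) was -0.32 (adjusted p = 0.155) without siFLI1 replicate 2 and -0.45 (adjusted p = 0.0766) without siNeg replicate 2. The call was also lost under DESeq2, at -0.49 (adjusted p = 0.0648). HOXC8 shares no exon bases with another gene.

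HOXB moved both ways, with 4 members higher and 4 lower of 9 tested in TC-32, 1 and 3 in TC-71, and 3 and 4 in A673. Of all genes tested, 41.3% rose and 40.1% fell in TC-32, 36.8% and 35.0% in TC-71, and 35.6% and 35.4% in A673. The TC-32 calls of HOXB7 (-0.25) and HOXB8 (-0.32), both lower, were lost under DESeq2, with library size alone and without single libraries. HOXB13 fell in each line, by little where it was highest. It went from 260, 250 and 257 CPM to between 218 and 237 in TC-32, a log2 fold change of -0.17 (adjusted p = 8.86e-04). The change was -0.36 in TC-71 (adjusted p = 1.87e-06), from 71.1, 68.7 and 72.2 CPM to 59.7, 55.1 and 50.9, and -0.60 in A673 (adjusted p = 3.73e-08), from 21.4, 20.9 and 20.7 to 13, 14.6 and 14.0. The siRNAs did not overlap in any line. PRAC1, a small gene beside HOXB13, rose by 0.48 in TC-32 and fell by 0.27 in TC-71 and by 0.94 in A673. Of the genes flanking HOXB, 3 of 5 tested rose and 1 fell in TC-32, 3 of 5 fell in TC-71 and 5 of 6 fell in A673, beside the same shares of all genes.

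HOXB9 moved in opposite directions in TC-32 and TC-71. In TC-32 it went from 7.87, 8.22 and 8.16 CPM to 20.0, 19.7 and 21.2, a log2 fold change of 1.33 (adjusted p = 2.99e-13). In TC-71 it went from 4.64, 4.66 and 5.52 CPM to 1.51, 1.30 and 1.37, a change of -1.83 (adjusted p = 4.27e-11). A673 read 3.83, 3.80 and 3.49 CPM against 3.6, 3.24 and 3.52, a change of -0.10 that did not pass (adjusted p = 0.289). With library size alone HOXB9 was called lower in A673, at -0.21 (adjusted p = 0.0385). The difference between TC-32 and TC-71 was 3.15 on the log2 scale (interaction adjusted p = 9.07e-18). HOXB9 lies on chromosome 17 from 48621156 to 48626358 and shares no exon bases with another gene.

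HOXB3, an anterior gene used in the hindbrain, was the member that rose in all 3 lines. It went from 11.3, 11.3 and 12.5 CPM to 25.1, 25.9 and 24.8 in TC-32, from 12.7, 11.3 and 12.6 to 15.4, 16.1 and 16.9 in TC-71, and from 19.2, 19.9 and 19.3 to 23.1, 24.3 and 22.8 in A673. All siFLI1 libraries lay above all siNeg libraries, with log2 fold changes of 1.11 (adjusted p = 1.59e-12), 0.40 (adjusted p = 1.14e-04) and 0.27 (adjusted p = 9.72e-05). With library size alone the A673 value was 0.16 (adjusted p = 0.00575). HOXB3 shares 6.42% of its exon bases with HOXB4 and HOXB6 on the same strand.

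HOXB2, HOXB5 and HOXB6 moved in opposite directions in TC-32 and A673. HOXB2 fell in TC-32 from 8.21, 9.84 and 10.3 CPM to 4.25, 5.85 and 5.08, a log2 fold change of -0.89 (adjusted p = 4.76e-07), and rose in A673 from 13.1, 13.7 and 13 to 18.6, 18.5 and 18, a change of 0.47 (adjusted p = 3.58e-07). HOXB5 rose in TC-32 from 8.46, 8.18 and 8.21 CPM to 15.3, 15.4 and 13.6, a change of 0.83 (adjusted p = 8.15e-09), and fell in A673 from 2.12, 1.92 and 1.78 to 1.09, 1.38 and 1.22, a change of -0.65 (adjusted p = 1.93e-04). HOXB6 rose in TC-32 from 11.3, 10.2 and 12.5 CPM to 15.0, 16.7 and 15.8, a change of 0.49 (adjusted p = 2.7e-05), and fell in A673 from 4.31, 4.13 and 4.30 to 3.14, 3.44 and 3.47, a change of -0.34 (adjusted p = 0.00132). In each of these cases the siRNAs did not overlap. None of these 3 passed in TC-71, where the changes were -0.20, 0.17 and 0.02, although without siNeg replicate 1 HOXB2 was called there at -0.35 (adjusted p = 0.0256). HOXB6 shares 16.6% of its exon bases with HOXB3 on the same strand, so some reads could be assigned to either. A further 16.3% of HOXB6's exon bases are covered on the opposite strand by HOXB-AS3.

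HOXB4 moved in opposite directions in A673 and TC-71. It rose in A673 from 5.97, 6.21 and 6.42 CPM to 6.98, 7.84 and 7.92, a log2 fold change of 0.29 (adjusted p = 0.00176), which was 0.19 (adjusted p = 0.0277) with library size alone. It fell in TC-71 from 7.20, 7.55 and 6.63 CPM to 5.16, 5.09 and 5.68, a change of -0.41 (adjusted p = 0.00217). TC-32 read 4.02, 3.96 and 5.18 CPM against 3.53, 3.39 and 3.76, a change of -0.30 that did not pass (adjusted p = 0.0679). The siRNAs did not overlap there, and without siNeg replicate 2 HOXB4 was called lower in TC-32, at -0.38 (adjusted p = 0.042). HOXB7 fell by 0.43 in A673 (adjusted p = 8.03e-07).

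HOXA could be tested in TC-71 alone, where 5 of its 11 members passed the filter. HOXA10 went from 20.9, 21.9 and 23.1 CPM to 13.4, 14.0 and 13, a log2 fold change of -0.71 (adjusted p = 2.47e-09). HOXA11, the HOXA partner of HOXD11 in the forearm, went from 18.9, 16.9 and 16.9 CPM to 11.1, 10.4 and 11.9, a change of -0.65 (adjusted p = 1e-07). HOXA13 rose from 6.65, 5.98 and 6.28 CPM to 10.0, 9.83 and 9.62, a change of 0.63 (adjusted p = 2.83e-06). None of the 3 overlapped between siRNAs. In this line HOXA13 and HOXD13, the posterior ends of their clusters, therefore moved in opposite directions. HOXA9 and HOXA7 did not pass, at -0.28 (adjusted p = 0.272) and 0.09 (adjusted p = 0.84). Of HOXA11's exon bases, 27.2% lie opposite the noncoding HOXA11-AS. All genes flanking HOXA that could be tested rose, 3 of 3 in TC-32 and in TC-71 and 4 of 4 in A673, where 41.3%, 36.8% and 35.6% of all genes rose. In A673, SNX10 held 8 to 15 counts in the siNeg libraries and 20 to 36 in the siFLI1 libraries. It passed the filter there only through the siFLI1 group, so a difference was built into its test.

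**Figure D4:**
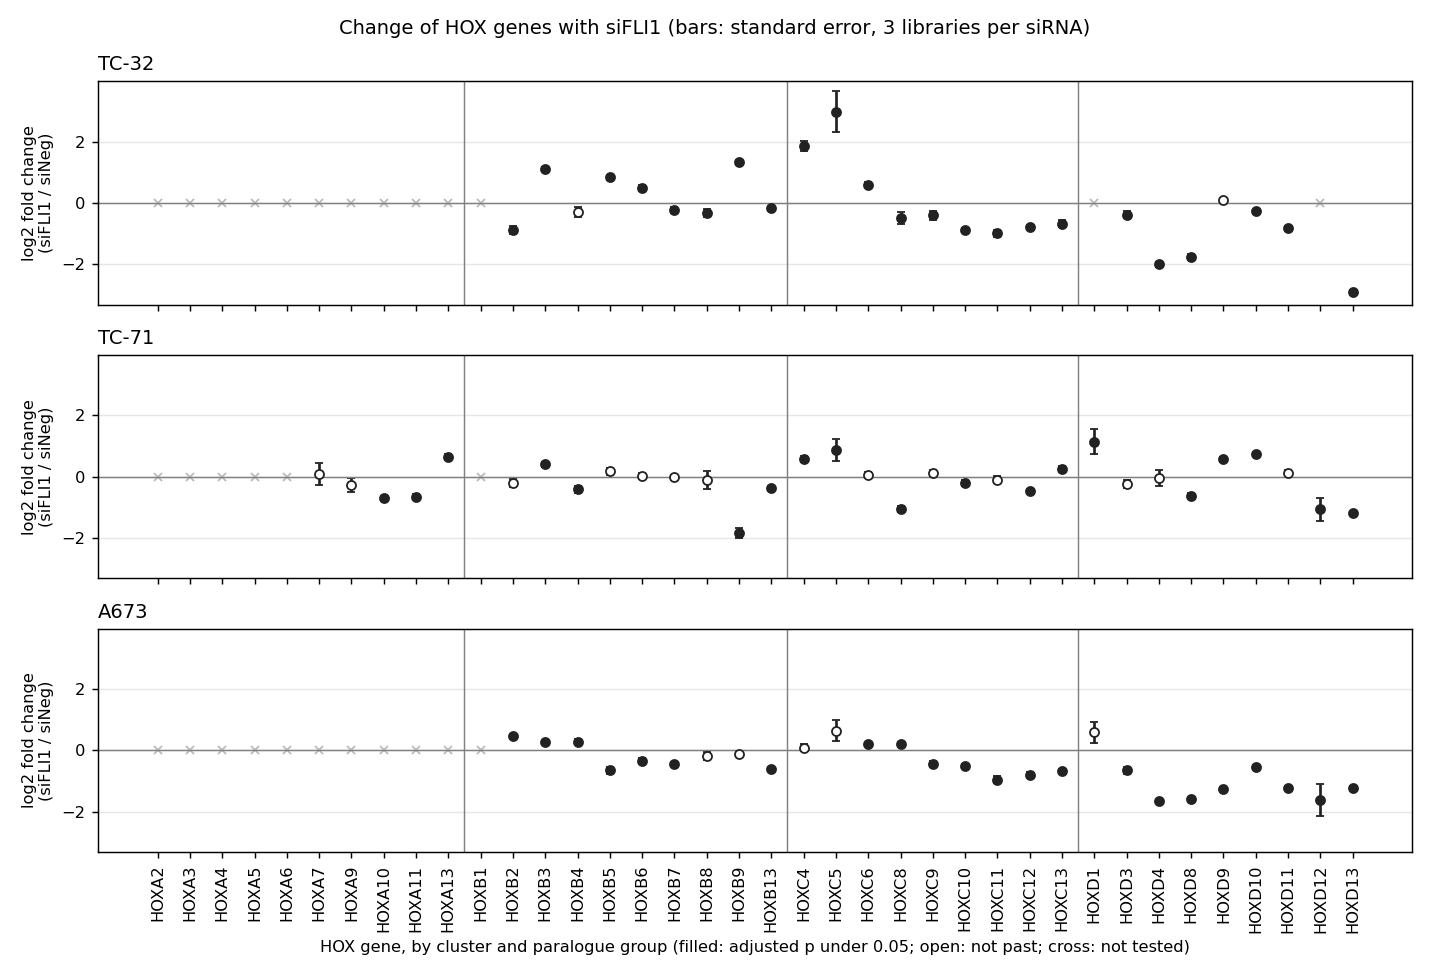
Log2 fold change of siFLI1 over siNeg for HOX genes in each line, by cluster and paralogue group, with bars for the standard error, filled points for calls, open points for genes that did not pass and crosses for genes not tested. HOXD is below 0 in TC-32 and A673, except HOXD9 in TC-32 and HOXD1 in A673, which did not pass the test, and TC-71 lies on both sides of 0.

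Across lines, 25 members were tested in all 3 and 7 in none. HOXB13, HOXC10, HOXC12, HOXD8 and HOXD13 fell in all 3 lines, 5 of 25, where 19.0% of the 14233 genes tested in all 3 fell in each. HOXB3 alone rose in all 3, where 18.9% of genes did. In all, 9 of 25 were called in each of the 3 lines, where 51.6% of genes were. Members called higher in one line and lower in another numbered 9, where 22.7% of genes were. By position, 9 of 11 posterior members tested fell in TC-32 and 11 of 12 in A673, against 8 of 16 in TC-71, and the shares of all genes that fell were those given above.

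The effect of siFLI1 differed between TC-32 and A673 for 17 of 25 members (68.0%, beside 72.8% of all genes tested in both lines). It differed between TC-32 and TC-71 for 21 of 25 (84.0%, beside 66.5%) and between A673 and TC-71 for 20 of 27 (74.1%, beside 61.2%). Opposite calls with a called difference were seen for 4, 3 and 5 members in these pairs, beside 15.0%, 9.13% and 11.3% of all genes. The interaction tests share libraries between pairs of lines, so they are not independent of each other.

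HOX partners and regulators were read from lists of known members. Of 9 TALE cofactor genes tested in each line, 6 rose and 2 fell in TC-32, 5 rose and 2 fell in TC-71, and 5 rose and 3 fell in A673, where 41.3%, 36.8% and 35.6% of all genes rose. MEIS3 rose by 1.93, 3.80 and 1.85 on the log2 scale and PBX3 by 1.71, 0.82 and 3.82, in the order TC-32, TC-71 and A673. In TC-71 the siNeg libraries of MEIS3 held only 5 to 11 counts. MEIS3 in TC-71 and PKNOX2 in TC-32 passed the filter only through the siFLI1 group, so a difference was built into those tests. MEIS1, a partner of posterior HOX proteins in blood cells, fell by 0.44, 0.15 and 1.07. Of 12 menin and MLL complex genes, 6 fell and 2 rose in TC-32, 6 fell and 3 rose in TC-71, and 9 fell and 1 rose in A673, where 40.1%, 35.0% and 35.4% of all genes fell. PSIP1, which tethers menin and MLL to chromatin, fell by 1.55, 0.75 and 0.66. MEN1, which encodes menin, fell by 0.31 in TC-32 and by 0.36 in TC-71, and did not pass in A673 at -0.12 (adjusted p = 0.0673).

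Noncoding genes of the HOX clusters were mostly too low to test, with 4, 6 and 5 of 10 past the filter. Of these, 1 rose in TC-32, 3 fell in TC-71 and 2 fell in A673. Beside that, 41.3% of all genes rose in TC-32, and 35.0% and 35.4% fell in TC-71 and A673. HOTAIR, a long noncoding RNA from the HOXC cluster, fell by 1.48 on the log2 scale in A673 (adjusted p = 1.12e-08) and by 0.41 in TC-71 (adjusted p = 0.00392), and read 0.02 in TC-32 (adjusted p = 0.901). HOXD-AS2, which lies opposite HOXD8, fell by 1.45 in A673 (adjusted p = 1.62e-06) and by 0.37 in TC-71 (adjusted p = 0.0169), and read -0.80 in TC-32 (adjusted p = 0.0578). Of 8 ParaHox and MEOX genes, the homeobox relatives outside the clusters, at most 2 per line could be tested. MEOX1, a gene of somite development, rose from 0.136 to 19.3 CPM in TC-32, where its siNeg libraries held 1 to 6 counts, and was also higher in TC-71 (2.59 and 9.0 CPM) and in A673 (0.388 and 2.15 CPM). In TC-32 MEOX1 passed the filter only through the siFLI1 group. CDX2, an activator of HOX genes in the embryo, fell by 1.32 in TC-71 (adjusted p = 0.00545) and was not tested elsewhere. It held 9 to 23 counts in the siNeg libraries of TC-71 and 3 to 13 in the siFLI1 libraries. CDX2 passed the filter there only through the siNeg group, so a difference was built into its test.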

How the data were processed

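Stranded mRNA libraries of the 3 lines were sequenced, 3 per line and siRNA. The TC-32 and A673 tables deposited by the authors hold expected counts from RSEM, by their names. The TC-71 table deposited by the authors holds counts from Subread, by its name. Neither is scaled to depth. Per the submitters' processing notes, cutadapt 4.4, STAR 2.7.3, featureCounts, Subread 2.0.3 and limma 3.38.3 were used, with GRCh38. Strandedness of the counting, the gene annotation and filters are not given in the sources used here. The columns for TC-32 and TC-71 do not carry the line, which rests on the name of the table. ES-5838 cells and siERG, named in the series text, are not analysed here.

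After rounding of the expected counts, a separate edgeR 4.0.16 fit was made per line (R 4.3.3): filterByExpr by group, TMM scaling, robust dispersion and the quasi-likelihood F-test, with Benjamini-Hochberg adjustment over all genes tested and a threshold of 0.05 for a call. Adjusted p-values are from this procedure unless DESeq2 is named. Log2 fold changes carry a prior count of 0.125. Differences between lines were interaction contrasts in a model of 6 groups and 18 libraries. Positions, exon lengths and overlaps came from GENCODE release 44 (GRCh38), and promoter windows from RefSeq, read with Python 3.11.15. The scripts were tested on simulated data.

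The members, the 8 gene lists and the tests were chosen with earlier results of these data known. The lists are TALE cofactors, menin and MLL complexes, HOX noncoding genes, genes flanking each of the 4 clusters, and ParaHox and MEOX genes. Per-library values are given, mainly for the lines in which they were called, for 21 members that were called the same way wherever tested, changed at least 2-fold in a line, were called in opposite directions, or were among the 3 highest in a line. Other members, and the HOXA genes of TC-71, are named more briefly or by count. The values of 1 member are not reported here. Nothing states that the replicates came from separate cultures, so p-values measure the spread between these libraries, which may be technical. Alternatives tried were DESeq2 1.42.0, limma-voom from limma 3.58.1, scaling by RLE or by library size alone, dropping the low-count filter, a minimum mean of 10 counts, expected counts left unrounded, the replicate block, only the 12 libraries of the lines compared, the longest transcript as length, and leaving out each library.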

Additional observations from a re-analysis of the deposited data

Results flagged for a closer look

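The effect of siFLI1 on HOX genes differed between lines by an interaction test for 17 of 25 members (TC-32 against A673), 21 of 25 (TC-32 against TC-71) and 20 of 27 (A673 against TC-71). The values that follow are the first line's log2 fold change minus the second's. Their causes were not tested.

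Between TC-32 and A673, the members called in opposite directions were HOXB2 at -1.33 (adjusted p = 2.5e-10), HOXB5 at 1.51 (adjusted p = 1.58e-10), HOXB6 at 0.85 (adjusted p = 1.24e-07) and HOXC8 at -0.71 (adjusted p = 4.17e-04). HOXD13 and HOXD4 fell in both lines, with differences of -1.68 and -0.32. The TC-32 arm of HOXC8 was the least stable of these, since its own call was lost without siFLI1 replicate 2.

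Between TC-32 and TC-71, HOXB9 differed by 3.15 (adjusted p = 9.07e-18), HOXC13 by -0.94 (adjusted p = 1.08e-06) and HOXD10 by -1.04 (adjusted p = 4.37e-15), each with opposite calls. The TC-71 arm of HOXC13 lost its own call under DESeq2, without the low-count filter and without single libraries. HOXD4, HOXD8 and HOXD13 differed by -1.98, -1.14 and -1.73.

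Between A673 and TC-71, the members with opposite calls were HOXB4 at 0.67 (adjusted p = 9.66e-05), HOXC8 at 1.25 (adjusted p = 1.7e-11), HOXC13 at -0.95 (adjusted p = 6.65e-08), HOXD9 at -1.87 (adjusted p = 1.77e-20) and HOXD10 at -1.34 (adjusted p = 1.45e-18). The limit on the TC-71 arm of HOXC13 holds here too. HOXD4 differed by -1.66 and HOXD8 by -1.0. The TC-71 counts came from another tool than the A673 and TC-32 counts. A fixed factor per gene cancels in each line's own ratio, and counting effects beyond that cannot be told apart from the line.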

How the results depend on the processing

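No called value changed sign under any alternative run. Some values that did not pass did, such as HOXD4 in TC-71, which ran from -0.30 to 0.13 over the fits without 1 library. With library size alone, 3 HOX genes were called higher in A673, against 5. HOXB8 and HOXB9 were then called lower there, at -0.29 (adjusted p = 0.0455) and -0.21 (adjusted p = 0.0385). The median of all A673 genes was -0.11 under that scaling. With the longest transcript as length, the HOXB and HOXD shares were 40.9% and 46.4% in TC-32, the HOXA share was 6.78% in TC-71, and the HOXB, HOXC and HOXD shares in A673 were 22.9%, 10.6% and 66.5%. Leaving out 1 library gave 7 higher and 14 to 16 lower members in TC-32, 6 to 8 higher and 9 to 12 lower in TC-71, and 5 to 6 higher and 16 to 17 lower in A673. Members with a differing effect numbered 16 to 18, 19 to 21 and 19 to 20 in the order of the pairs above. DESeq2 called 7 higher and 13 lower in TC-32, 6 and 10 in TC-71, and 5 and 17 in A673. Among the single genes, 65 values lost their call under an alternative and 16 gained one, against 2911 that kept their side of the threshold. In TC-32, HOXB7 lost its call without siNeg replicate 1 (-0.16, adjusted p = 0.155) and HOXB8 under DESeq2 (-0.31, adjusted p = 0.0849). The correlations of the deviations of same-numbered replicates ran from -0.205 to 0.0531 over the 9 pairs. Each deviation was taken from a mean of only 3 libraries, so this check cannot exclude a shared culture or batch. With the replicate number as a block, 7, 8 and 5 members were higher and 16, 10 and 17 lower, in the order of lines above, and 17, 20 and 20 differed between lines. HOXC10 in TC-71 was the call within a line that the block removed. Few counts limit what can be said of HOXD12, HOXD1, HOXC5 and most HOXA genes. For HOXA this held even in the A673 libraries, which are the deepest.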
